A study of Mus musculus with 22 samples.

Results

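The genes described here are C1qa, C1qb, C1qc, Mrc1, Tyrobp, Fcer1g, Cd68, Cd14 and Laptm5, 9 of the 24454 genes in the count table, taken by name as genes of C1q and of macrophage receptors and their adaptors. They were measured by bulk RNA-seq in 22 libraries of 25 cells each from the aorta-gonad-mesonephros (AGM), the embryonic region where the first haematopoietic stem cells arise from endothelium. The cells came from embryos labelled as C57BL/6, with no treatment and no altered allele named, were sorted as positive for VE-Cadherin, and were split by the surface proteins CD44 and Kit into 4 populations. CD44Neg, labelled as endothelial, is represented by 10 libraries, of which 4 are from E9.5, 3 from E10 and 3 from E11. CD44LowKitNeg, labelled as haemogenic endothelium, has 6 (1, 2 and 3 from those stages). CD44LowKitPos, labelled as Pre-HSPC, has 3 (1 from E9.5 and 2 from E10), and CD44High, labelled as HSPC (haematopoietic stem and progenitor cells), has 3, all from E11. The date in the labels changes with the stage, so date and stage cannot be told apart, and no stage holds both CD44LowKitPos and CD44High. The titles of all CD44LowKitPos and CD44High libraries carry the prefix KG, and those of CD44Neg and CD44LowKitNeg do not. The titles do not explain this prefix, and it cannot be told apart from that split of the populations.

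C1q is the recognition molecule of the classical complement pathway. Its 3 chains, A, B and C, are encoded by C1qa, C1qb and C1qc and are made mainly by tissue macrophages, which also use C1q to tag dying cells for uptake. TYROBP (DAP12) and FCER1G (the Fc receptor gamma chain) are small membrane adaptors that pair with receptors lacking a signalling tail and recruit the kinase SYK. MRC1 (CD206) is the mannose receptor, CD14 is the co-receptor that hands lipopolysaccharide to Toll-like receptor 4, CD68 is a heavily glycosylated lysosomal protein of macrophages, and LAPTM5 is a lysosomal membrane protein found in most blood cells. In the mid-gestation embryo macrophages are among the first differentiated blood cells and are present in and around the aorta.

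Levels are given as counts or as normalized CPM, the count scaled to a common library size with factors from the trimmed mean of M values (TMM). The libraries held 3912350 to 8657546 counts, so that a count of 0 allowed at most 3 counts, or 0.348 to 0.816 normalized CPM. These limits cover counting error only, since the reads carry no molecular identifiers. The sort markers followed the labels for Cd44, whose lowest normalized CPM was 158 in CD44LowKitNeg, 195 in CD44LowKitPos and 171 in CD44High against a highest of 58.9 in CD44Neg. Kit ranged from 174 to 270 in CD44LowKitPos and from 18.3 to 120 in the 19 other libraries. Cdh5, which encodes VE-Cadherin, was at 0 counts in all 3 CD44High libraries, although these cells were sorted as VE-Cadherin positive, while its lowest level elsewhere was 73.5 normalized CPM. The labels do not say that libraries came from separate embryos, so p-values measure the spread between libraries, and in bulk RNA fewer cells of a type and less RNA per cell cannot be told apart.

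All 9 genes were higher in each CD44High library than in every other library of the series. Of all genes tested, 9.64% were higher in every CD44High library than in every CD44Neg library. The shares were 13.6% against CD44LowKitNeg and 11.9% against CD44LowKitPos. C1qa, C1qb, C1qc and Cd14 passed the filter on low counts only through CD44High, so that the filter decided their place. Below CD44High the 9 genes did not share a pattern. The C1q genes were at 0 counts in the 19 libraries of the other populations. Tyrobp was at 0 in CD44Neg and CD44LowKitNeg and present in CD44LowKitPos. Fcer1g followed Tyrobp with a few counts in the endothelial populations, whereas Laptm5 was present in every library and rose from CD44Neg to CD44LowKitNeg. Mrc1, Cd68 and Cd14 had scattered low counts outside CD44High.

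**Figure D1:**
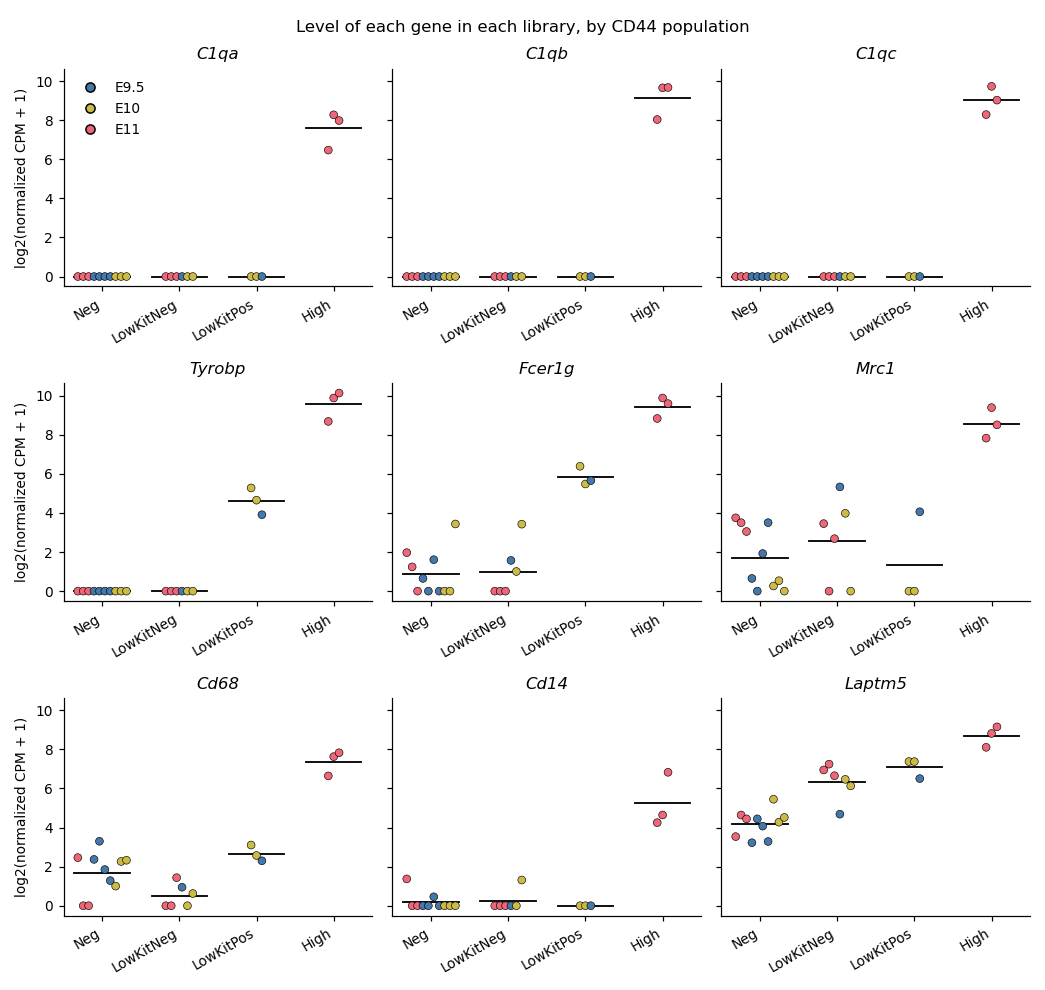
Level of each of the 9 genes in each library, as log2(normalized CPM + 1) on the vertical axis, by CD44 population on the horizontal axis. Points are libraries coloured by embryonic stage and bars are means of the plotted values; the 3 CD44High libraries lie above all others in each panel, the C1q genes lie at 0 elsewhere, and Laptm5 is above 0 in all 22 libraries.

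The C1q genes lie next to each other on the minus strand of chromosome 4, within chr4:136880129-136898803 in the GRCm38 (mm10) build, a stretch of 18675 bases that holds C1qb, C1qc and C1qa in order of position. Sequence upstream of 4 of the genes is shown because these genes differ in pattern, C1qb and C1qc being at 0 outside CD44High, Fcer1g present in CD44LowKitPos and Mrc1 scattered at low counts. Each run is taken from RefSeq promoters (GRCm38.p6), reads 5′ to 3′ on the gene's strand from 250 bases before the RefSeq start, and ends at the base before that start or before the first GENCODE transcript, whichever comes first. The coordinates are chr4:136886201-136886450 (minus strand), chr4:136893066-136893164 (minus), chr1:171234366-171234599 (minus) and chr2:14229164-14229391 (plus). Capitals mark GAGGAA or its complement TTCCTC, a core bound by the haematopoietic factor PU.1.
C1qb: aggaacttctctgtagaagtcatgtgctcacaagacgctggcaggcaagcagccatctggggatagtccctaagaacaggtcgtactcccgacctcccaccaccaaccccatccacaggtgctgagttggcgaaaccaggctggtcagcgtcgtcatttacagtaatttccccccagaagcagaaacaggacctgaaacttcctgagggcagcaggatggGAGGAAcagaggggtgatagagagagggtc
C1qc: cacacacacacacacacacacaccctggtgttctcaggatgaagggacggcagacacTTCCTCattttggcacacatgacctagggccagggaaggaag
Fcer1g: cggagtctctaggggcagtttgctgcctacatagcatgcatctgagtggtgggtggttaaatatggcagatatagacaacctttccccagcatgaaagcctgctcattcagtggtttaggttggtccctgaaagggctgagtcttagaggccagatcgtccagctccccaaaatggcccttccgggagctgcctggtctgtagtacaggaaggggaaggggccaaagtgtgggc
Mrc1: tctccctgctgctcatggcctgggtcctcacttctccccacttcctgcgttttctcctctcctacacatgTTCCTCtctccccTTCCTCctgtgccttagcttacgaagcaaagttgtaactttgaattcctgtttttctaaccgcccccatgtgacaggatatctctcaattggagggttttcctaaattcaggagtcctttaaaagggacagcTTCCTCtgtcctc
The RefSeq table held 6 of the 9 genes. In the 250 bases before the start, on either strand, GAGGAA was found in 5 of them, C1qb (1 match), C1qc (1), Mrc1 (3), Cd68 (1) and Laptm5 (1), and not in Fcer1g, against 23.3% of all 32851 promoters. The Laptm5 match lies before the RefSeq start but within the gene as annotated by GENCODE. TGTGGT (or ACCACA), a core bound by RUNX factors, was found in C1qc only, apart from its GAGGAA match and outside the run shown, against 14.0% of all promoters. These are matches of letters in genes chosen by name, not sites.

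C1qb, which encodes the B chain, had 1316, 3018 and 2991 counts in CD44High replicates 20, 21 and 22, or 261, 804 and 814 normalized CPM. C1qc, the C chain, had 1569, 3177 and 1908 counts (311, 846 and 519 normalized CPM). C1qa, the A chain, had 442, 1157 and 923 counts (87.5, 308 and 251 normalized CPM). Replicate 20 was the lowest for each chain, and no count was seen in any of the 19 other libraries, which together held 112396488 counts. The means in CD44High were 626 ± 317 for C1qb, 559 ± 270 for C1qc and 216 ± 115 for C1qa (SD, n = 3). Set against 3 counts in the shallowest library of each population at 0, the mean of C1qb was at least 788-fold higher than CD44Neg, at least 1243-fold higher than CD44LowKitNeg and at least 1345-fold higher than CD44LowKitPos. For C1qa the corresponding bounds were 271-fold, 428-fold and 463-fold, and for C1qc 703-fold, 1109-fold and 1200-fold.

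Differences were tested in edgeR (quasi-likelihood F-test, p-values adjusted by Benjamini-Hochberg over all genes tested, threshold 0.01). The C1q genes were called higher in CD44High against each of the other populations. The largest adjusted p was that of C1qa, at 3.7e-06 against CD44Neg, 1.4e-05 against CD44LowKitNeg and 3.3e-04 against CD44LowKitPos. Since C1qa, C1qb, C1qc and Cd14 passed the filter on low counts only through CD44High, a difference in that direction was fixed by the filter. DESeq2's Wald test called C1qb against CD44Neg (adjusted p = 0.0098) but not C1qa (0.025) or C1qc (0.011), and none of the 3 against CD44LowKitNeg. Nor did it call any of the 3 against CD44LowKitPos (adjusted p = 0.15 for C1qa, 0.089 for C1qb and 0.095 for C1qc). With stage as a covariate, the C1q genes were not called in edgeR against CD44LowKitPos (adjusted p = 1.0), although that fit called 354 genes in this comparison. CD44High and CD44LowKitPos share no stage and are linked in that fit only through CD44Neg and CD44LowKitNeg, where the C1q genes were at 0, so that for these genes population and stage cannot be told apart.

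Levels of different genes were compared per kb of exon (GENCODE vM21). Among the C1q chains, C1qb took 49.4%, 50.1% and 59.4% of the length-corrected level in CD44High replicates 20, 21 and 22. C1qc took 33.2%, 29.7% and 21.4%, and C1qa 17.4%, 20.1% and 19.2%, so that the order B, C, A held in all 3 libraries while the share of C1qc varied most. Over the 9 genes the order from high to low was Tyrobp, Fcer1g, C1qb, C1qc, C1qa, Cd68 and Laptm5 in each CD44High library, with Mrc1 above Cd14 in replicates 20 and 21 and below it in replicate 22. Between-library SDs were large, as in 1234 ± 554 normalized CPM per kb for Tyrobp and 826 ± 282 for Fcer1g (n = 3), so that neighbours in this order overlapped in their spread over libraries. Fcer1g lies on chromosome 1 (chr1:171229572-171234365, minus strand), Mrc1 on chromosome 2 ( chr2:14229392-14332057, plus), Laptm5 on chromosome 4 (chr4:130913125-130936141, plus), Tyrobp on chromosome 7 (chr7:30413760-30417585, plus) and Cd68 on chromosome 11 (chr11:69664213-69666153, minus). The 9 genes together took 0.181%, 0.436% and 0.397% of all counts in replicates 20, 21 and 22, at most 0.0321% in CD44LowKitPos, 0.0152% in CD44LowKitNeg and 0.00423% in CD44Neg.

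**Figure D2:**
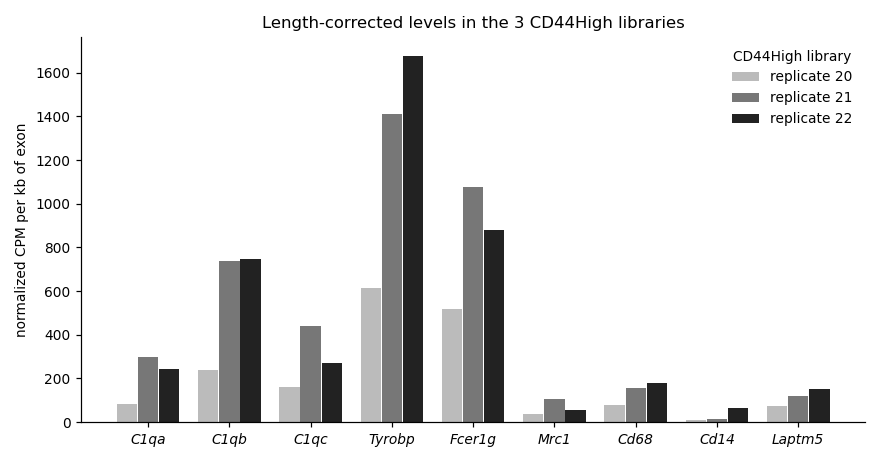
Normalized CPM per kb of exon (vertical axis, from 0) of the 9 genes in the 3 CD44High libraries, 1 bar per library. Tyrobp is highest in each library, from 614 in replicate 20 to 1679 in replicate 22, and replicate 20 is lowest for all 9 genes.

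Tyrobp, the adaptor of receptors such as TREM2, was at 0 counts in all 10 CD44Neg and all 6 CD44LowKitNeg libraries. It had 244, 181 and 93 counts in CD44LowKitPos replicates 17, 18 and 19 (37.8, 24.2 and 14.0 normalized CPM) and 2067, 3533 and 4116 in CD44High (409, 941 and 1120 normalized CPM). The E9.5 library, replicate 19, was the lowest of CD44LowKitPos, and the 3 levels of Tyrobp (0, present, high) did not overlap. The CD44LowKitPos mean of 25.3 ± 11.9 (SD, n = 3) was at least 31.9-fold above CD44Neg and at least 50.3-fold above CD44LowKitNeg, and edgeR's quasi-likelihood test gave adjusted p = 1.3e-05 and 8.1e-05. Against the populations at 0, the CD44High mean was at least 1036-fold (CD44Neg) and at least 1635-fold (CD44LowKitNeg) higher. Tyrobp passed the filter only through CD44LowKitPos and CD44High, so that its direction against the populations at 0 was fixed. The CD44High mean of 823 ± 370 was 32.5-fold above CD44LowKitPos (log2 difference 5.02, SE 0.54, adjusted p = 3.2e-04). With stage as a covariate it was not called (edgeR adjusted p = 1.0), as for the C1q genes, and for Tyrobp too the populations that span the stages were at 0. Fitted on the 9 CD44LowKitNeg and CD44LowKitPos libraries alone, the difference between these populations had an adjusted p of 0.013 in edgeR.

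Fcer1g, the gamma chain of Fc receptors, had counts in 5 of 10 CD44Neg libraries (lowest 0, median 0.284, highest 9.82 normalized CPM) and in 3 of 6 CD44LowKitNeg libraries (0, 0.504 and 9.74). CD44LowKitPos replicates 17, 18 and 19 held 82.7, 43.6 and 49.3 normalized CPM, and CD44High replicates 20, 21 and 22 held 454, 940 and 770. CD44LowKitPos and CD44High lay above both endothelial populations without overlap, and CD44High above CD44LowKitPos. Fcer1g was 35.0-fold higher in CD44LowKitPos than in CD44Neg by the means (log2 difference 5.18, SE 0.95, edgeR adjusted p = 0.0012). This call was lost without the E9.5 libraries (adjusted p = 0.024), within E10 (0.035) and in DESeq2 (0.050). Against CD44LowKitNeg the ratio was 27.6 (log2 difference 4.76, adjusted p = 0.0071), and this call was lost in 11 of the 22 fits that left out a single library, with adjusted p between 0.0018 and 0.044. It was also lost in DESeq2 (0.078), with only the libraries compared (0.053), without the E9.5 libraries (0.025) and within E10 (log2 difference 3.52, edgeR adjusted p = 0.13). Without CD44LowKitNeg replicate 16, the library with the highest level there, the log2 difference was 6.48, and without CD44Neg replicate 10 that from CD44Neg was 6.31. The libraries whose omission lost the call were CD44Neg replicates 2 and 5, CD44LowKitNeg replicates 11 to 15, CD44LowKitPos replicates 17 and 18 and CD44High replicates 21 and 22. From CD44LowKitPos to CD44High the means differed 12.3-fold, which did not pass the test (log2 difference 3.62, SE 1.32, adjusted p = 0.12), although it did in limma voom and when only the libraries of these populations were fitted. CD44High was 432-fold above CD44Neg (log2 difference 8.81, SE 1.01, adjusted p = 6.8e-07) and 340-fold above CD44LowKitNeg (8.38, SE 1.22, adjusted p = 1.9e-05), or by 9.94 and 10.1 without the same 2 libraries in turn.

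Laptm5 was the only one of the 9 genes with counts in all 22 libraries. Its lowest, median and highest normalized CPM were 8.34, 19.6 and 42.6 in CD44Neg and 24.7, 93.4 and 150 in CD44LowKitNeg. CD44LowKitPos replicates 17, 18 and 19 held 165, 165 and 89.7, and CD44High replicates 20, 21 and 22 held 274, 448 and 567. The endothelial populations overlapped over all stages, since the E9.5 library of CD44LowKitNeg (replicate 14, 24.7) lay below the E10 library of CD44Neg with the highest level (replicate 8, 42.6). Within each stage they did not overlap, with 24.7 (1 library) against at most 20.8 (4 libraries) at E9.5. The values were 69.0 and 87.3 against at most 42.6 (3 libraries) at E10, and 99.5 to 150 against at most 23.9 (3 libraries each) at E11. At E11 13.3% of all genes tested lay above CD44Neg in this way, and the shares at E9.5 and E10 were not computed.

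By the means Laptm5 was 4.80-fold higher in CD44LowKitNeg than in CD44Neg (92.1 ± 43.5, n = 6, against 19.2 ± 9.98, n = 10), a log2 difference of 2.27 (SE 0.36, edgeR adjusted p = 1.9e-04). It was the only one of the 3 genes tested there (Mrc1, Cd68 and Laptm5) that was called, against 4.94% of all genes called higher. Within stages the log2 difference was 1.50 at E10 (SE 0.43, adjusted p = 0.061, not called) and 2.74 at E11 (SE 0.41, adjusted p = 4.0e-04). CD44LowKitPos was 7.29-fold above CD44Neg (log2 difference 2.87, SE 0.38, adjusted p = 4.4e-05) but did not differ past the threshold from CD44LowKitNeg, with a ratio of 1.52 and a log2 difference of 0.60 (adjusted p = 0.42). CD44High was 22.4-fold above CD44Neg (log2 difference 4.48, SE 0.38, adjusted p = 8.3e-09) and 4.67-fold above CD44LowKitNeg (2.22, SE 0.44, adjusted p = 5.2e-04). It was 3.07-fold above CD44LowKitPos with no call (log2 difference 1.62, SE 0.54, adjusted p = 0.080). In the order of levels, CD44LowKitNeg and CD44LowKitPos, and CD44LowKitPos and CD44High, were therefore neighbours that did not pass the test.

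**Figure D3:**
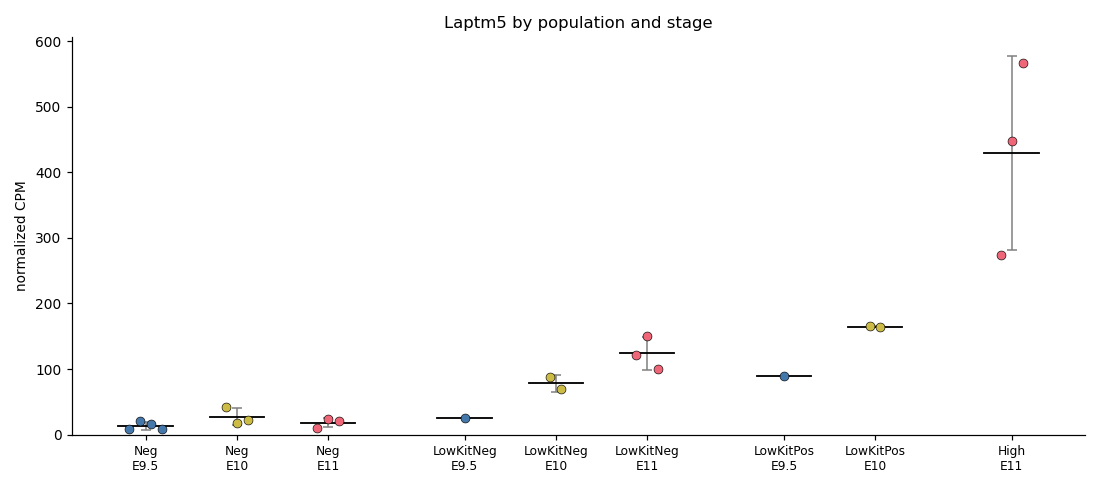
Laptm5 level (normalized CPM, vertical axis from 0) in each library by population and embryonic stage on the horizontal axis. Points are libraries, black bars means and grey bars SD where a group has more than 1 library. CD44LowKitNeg, with only 1 library at E9.5, lies above CD44Neg of the same stage at E9.5, E10 and E11.

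Mrc1, the mannose receptor, had counts in 8 of 10 CD44Neg libraries (lowest 0, median 1.68, highest 12.4 normalized CPM), 4 of 6 CD44LowKitNeg libraries (0, 7.68 and 39.3) and 1 of 3 CD44LowKitPos libraries (0, 0 and 15.7). CD44High held 226, 669 and 362 in replicates 20, 21 and 22. The highest library of CD44LowKitNeg (replicate 14) and the sole CD44LowKitPos library with counts (replicate 19) were both from E9.5, whereas within CD44Neg the E11 libraries (7.28, 10.3 and 12.4) and E9.5 replicate 7 (10.3) were highest. The 3 lower populations overlapped. Mrc1 differed by 1.38 on the log2 scale between CD44LowKitNeg and CD44Neg (SE 1.18, edgeR adjusted p = 0.46), and by 0.467 to 1.69 without single libraries. Between CD44LowKitPos and CD44Neg it differed by 0.22 (edgeR adjusted p = 0.96), a value that turned to -7.69 (edgeR adjusted p = 0.18) without CD44LowKitPos replicate 19. CD44High was 94.4-fold above CD44Neg by the means (log2 difference 6.54, SE 1.17, edgeR adjusted p = 1.9e-04). Against CD44LowKitNeg it was 36.2-fold higher (5.17, SE 1.36, adjusted p = 0.0063, and 6.13 without CD44LowKitNeg replicate 14 or 4.57 without CD44High replicate 21), and that call was lost in 8 of 22 fits without a single library (CD44LowKitNeg replicates 11, 12, 13, 15 and 16 and each CD44High replicate), with adjusted p up to 0.037, as well as in DESeq2 (0.031) and with stage as a covariate (0.048). The microRNA gene Mir511 lies within the bounds of Mrc1 on the same strand, and whether they share exonic bases was not examined. The 80.2-fold ratio to CD44LowKitPos did not pass the test (log2 difference 6.32, SE 1.93, adjusted p = 0.052), although limma voom called it (9.75, adjusted p = 0.0021). Its denominator rests on CD44LowKitPos replicate 19, without which that population is at 0.

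Cd68, the lysosomal macrophage marker, was low but widespread outside CD44High. It had counts in 8 of 10 CD44Neg libraries (lowest 0, median 3.21, highest 8.83 normalized CPM), in 3 of 6 CD44LowKitNeg libraries (0, 0.271 and 1.70) and in all 3 CD44LowKitPos libraries (7.60, 4.94 and 3.92 in replicates 17, 18 and 19). CD44High replicates 20, 21 and 22 held 98.8, 196 and 226. CD44LowKitPos lay above CD44LowKitNeg without overlap, but within the range of CD44Neg. Cd68 was 57.2-fold higher in CD44High than in CD44Neg by the means (log2 difference 5.85, SE 0.80, edgeR adjusted p = 6.9e-06) and 328-fold higher than in CD44LowKitNeg, a group with 23 counts in all (8.30, SE 1.10, adjusted p = 4.9e-06, and 8.99 without CD44LowKitNeg replicate 13). Against CD44LowKitPos the ratio of 31.7 did not pass the test (4.98, SE 1.26, adjusted p = 0.016), and it passed in DESeq2 (4.8e-04), in limma voom (8.8e-04), when only the libraries compared were fitted (9.3e-04), and without CD44Neg replicate 2 or 3 (at the lowest 0.0079). Between CD44LowKitPos and CD44LowKitNeg the log2 difference was 3.32 (edgeR adjusted p = 0.028), and 2.995 to 4.019 without single libraries. CD44LowKitNeg lay below CD44Neg with no call (log2 difference -2.47, SE 1.27, edgeR adjusted p = 0.19). Without single libraries that difference was -3.252 to -2.19.

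Cd14, the lipopolysaccharide co-receptor, was the least abundant of the 9 genes in CD44High by counts, with 91, 90 and 413 in replicates 20, 21 and 22 (18.01, 24.0 and 112 normalized CPM). Elsewhere it had 6 and 2 counts in CD44Neg replicates 1 and 6, 11 counts in CD44LowKitNeg replicate 16 and 0 in the 16 other libraries. CD44High lay above all of them, with replicate 22 far above the other CD44High libraries. The CD44High mean of 51.5 ± 52.9 (SD, n = 3) was at least 111-fold above CD44LowKitPos, which was at 0. The fitted log2 difference was 11.2, and 9.90 at the lowest with a single library left out. The test did not pass (edgeR adjusted p = 0.012). It passed in limma voom (1.3e-05), when only the libraries compared were fitted (0.0071), and without CD44Neg replicate 1 (0.0047) or CD44LowKitNeg replicate 16 (0.0078). Cd14 was called against CD44Neg (log2 difference 8.03, SE 1.36, adjusted p = 1.3e-04) and against CD44LowKitNeg (7.57, SE 1.62, adjusted p = 0.0013), and DESeq2 called neither (0.051 and 0.083). The first was 9.63 without CD44Neg replicate 1 and 6.63 without CD44High replicate 22, and without CD44LowKitNeg replicate 16 the CD44LowKitNeg group was at 0. Without CD44High replicate 22 the log2 difference from CD44LowKitNeg was 6.21 with an adjusted p of 0.041 in edgeR, so that this call rested on that library.

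Counted over the 9 genes, CD44High against CD44Neg gave 9 calls, all higher, where 7.14% of the 12949 genes tested were called higher. CD44High against CD44LowKitNeg gave 9 where 7.79% of all genes were called higher, and CD44High against CD44LowKitPos gave 4 (C1qa, C1qb, C1qc and Tyrobp) where the share was 0.78%. The direction of C1qa, C1qb, C1qc and Cd14 in these 3 comparisons was fixed by the filter, so their calls are not to be read against those shares, and among the 5 other genes 5, 5 and 1 were called. Tyrobp, 1 of these 5, was at 0 counts in every CD44Neg and CD44LowKitNeg library. It passed the filter only through CD44LowKitPos and CD44High, so its direction against the endothelial populations was also fixed. Its calls there are not to be read against the shares either. CD44LowKitPos against CD44Neg gave 3 (Tyrobp, Fcer1g and Laptm5), with 2.08% of all genes called higher. CD44LowKitPos against CD44LowKitNeg gave 2 (Tyrobp and Fcer1g), with 2.55%, and in both comparisons the filter fixed the direction of Tyrobp. None of the 9 was called lower in any of these comparisons, which share libraries. By values alone, each of the 5 other genes was higher in every CD44High library than in every CD44Neg library (9.64% of all genes tested did so), every CD44LowKitNeg library (13.6%) and every CD44LowKitPos library (11.9%), as were the 4 whose place the filter decided. CD44LowKitPos lay wholly above CD44Neg for 3 genes (5.29%) and wholly above CD44LowKitNeg for 3, Tyrobp, Fcer1g and Cd68 (9.55%), and CD44LowKitNeg wholly above CD44Neg for 0 (2.5%), the same comparison at E11 giving Laptm5 (13.3%). The median log2 difference of the 9 genes between CD44High and CD44Neg was 8.81 (8.08 with genes at 0 in CD44Neg set at their bounds), beside -0.02 for all genes tested.

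Because CD44High was collected at E11 only, the comparisons were repeated within that stage from a fit with a mean for each population and stage. At E11, CD44High against CD44Neg (3 libraries each) gave 8 of the 9 genes, Cd14 being at an adjusted p of 0.027 (called by limma voom, 2.1e-04), with 4.03% of all genes called higher. CD44High against CD44LowKitNeg at E11 gave 9 (10.6% of all genes), and the filter again fixed the direction of the C1q genes and Cd14, with 5 of the 5 other genes called in both comparisons. Among these 5, Tyrobp was at 0 counts in CD44Neg and CD44LowKitNeg, so that its direction was fixed too. The comparison of CD44LowKitNeg with CD44Neg at E11 gave Laptm5 alone (0.973%). DESeq2 called 3 of the 9 against CD44Neg (Fcer1g, Cd68 and Laptm5) and 4 against CD44LowKitNeg (those and Mrc1), the 3 C1q genes and Tyrobp being called in neither. Of the edgeR calls at E11, 5 were lost when a single library was left out. Mrc1 against CD44Neg was lost without CD44Neg replicate 1, 2, 3 or 8 or any CD44High replicate (adjusted p up to 0.041), and Cd68 against CD44Neg without CD44Neg replicate 2 (0.011). Against CD44LowKitNeg, Mrc1 was lost without CD44LowKitNeg replicate 13 or CD44High replicate 21 (up to 0.012) and Laptm5 without CD44LowKitNeg replicate 13 or CD44High replicate 22 (up to 0.015). Cd14 was lost without CD44LowKitNeg replicate 11, 12 or 13 or CD44High replicate 22 (up to 0.026).

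At E10 edgeR called 0 of the 9 genes between CD44LowKitNeg and CD44Neg (2 against 3 libraries; Mrc1 and Laptm5 had an unadjusted p under 0.05), where 0.131% of all genes were called higher. Tyrobp and Laptm5 were called between CD44LowKitPos and CD44Neg (0.981% of all genes), with Fcer1g at an adjusted p of 0.035, and Tyrobp between CD44LowKitPos and CD44LowKitNeg (0.417%). The filter fixed the direction of Tyrobp in both comparisons, since it was at 0 counts in the endothelial populations. Stages were compared within a population for 2 contrasts. E11 against E10 within CD44LowKitNeg gave 0 of 9 at an adjusted p under 0.01 (0.494% of all genes were called), with 2 at an unadjusted p under 0.05, Fcer1g and Cd14, which were at 0 counts in all 3 E11 libraries, and with no filter on low counts edgeR called Fcer1g. E11 against E9.5 within CD44Neg gave 0 (0.0463% of all genes), with 0 at an unadjusted p under 0.05. The interaction of population and stage at E10 and E11 gave 0 (0.00772% of all genes), with 4 at an unadjusted p under 0.05, among them Laptm5, whose difference between CD44LowKitNeg and CD44Neg was larger at E11 by 1.24 on the log2 scale (SE 0.59, p = 0.048 in edgeR, adjusted p = 0.49). DESeq2 and limma voom also gave 0 of the 9 in these 3 comparisons.

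Other macrophage markers were also high in CD44High. Of 26 further markers, 24 passed the filter, 14 of them only through CD44High, so that their direction was fixed. In edgeR 21 of the 24 were higher in CD44High than in CD44Neg, where 7.14% of all genes were called higher (7 of the 10 that passed without CD44High), with a median log2 difference of 12.1 (7.95 with genes at 0 at their bounds) beside -0.02 for all genes. The summed level of the 26 was 5681 to 9115 normalized CPM in CD44High, 478 to 1177 in CD44LowKitPos, 4.18 to 143 in CD44LowKitNeg and 17.1 to 36.0 in CD44Neg. Ctss (a lysosomal protease) was at 640 to 1317 normalized CPM in CD44High and Ly86 (MD-1, partner of CD180) at 341 to 631, and both were at 0 counts in all 19 other libraries. Cx3cr1, the fractalkine receptor, was at 391 to 958 in CD44High and had counts in 2 other libraries, both from E9.5. Cd163 was at 0 in all 22 libraries and Timd4 at no more than 0.266 in any.

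CD44LowKitPos expressed some of these markers. Of the 24 markers tested, 8 were higher there than in CD44Neg, where 2.08% of all genes were called higher. They were led by Ptprc (CD45, 29.4 to 112 normalized CPM), Csf1r (the CSF-1 receptor, 1.51 to 9.74), Lyz2 (lysozyme, 145 to 212) and Spi1 (PU.1, 118 to 257). Adgre1 (F4/80), Aif1, Ctss, Ly86, Mpeg1 and Trem2 were among 11 markers at 0 counts in all 3 CD44LowKitPos libraries. Spi1 did not separate CD44LowKitPos from CD44High, where it was at 64.9 to 249 (log2 difference -0.26, SE 1.16, edgeR adjusted p = 0.97), while Csf1r, which passed the filter only through CD44High so that its direction was fixed, differed by 5.99 (SE 0.73, adjusted p = 8.5e-05). In CD44LowKitNeg, Spi1 was higher than in CD44Neg (4.56, SE 1.13, adjusted p = 0.0073).

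**Figure D4:**
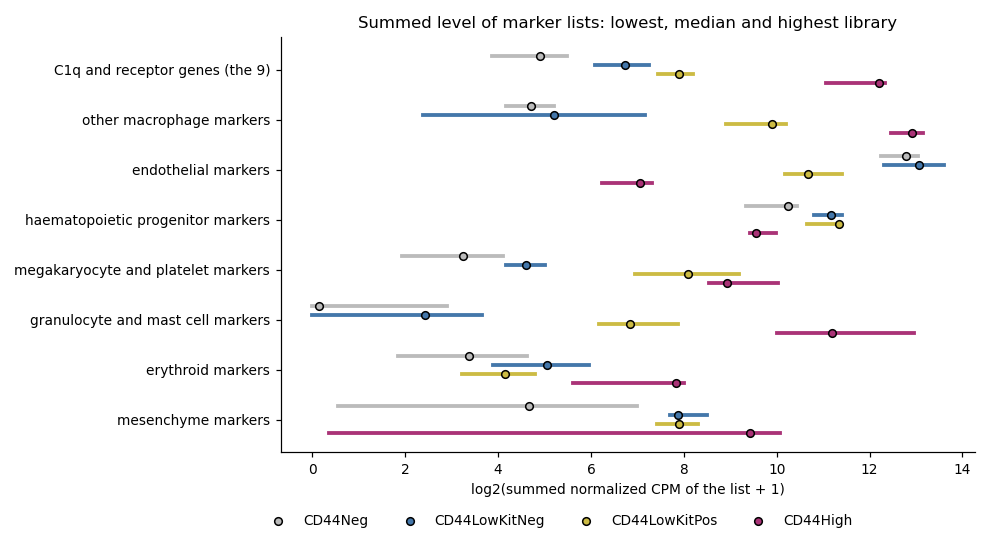
Summed level of each marker list, as log2(summed normalized CPM + 1) on the horizontal axis, for the lists named on the vertical axis. Lines run from the lowest to the highest library of each population and points are medians; CD44High is highest for the 9 genes (2138 to 5176) and the other macrophage markers and lowest for endothelial markers (74.2 to 157).

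Markers of other cell types also differed in this contrast, to unequal degrees. All 12 endothelial markers were lower in CD44High than in each other population, with Cdh5 and Sox17 at 0 counts there. Granulocyte and mast cell markers summed to 1027 to 7942 normalized CPM in CD44High against 71.6 to 233 in CD44LowKitPos and at most 11.5 in the endothelial populations. Of the markers tested between CD44High and CD44Neg, 3 of 4 granulocyte and mast cell markers, 6 of 9 megakaryocyte, 2 of 6 erythroid, 7 of 14 progenitor and 1 of 10 mesenchyme markers were called higher in edgeR, and 2 progenitor markers lower. Some of those called higher, among them Cpa3, Gp1bb and Treml1, passed the filter only through CD44High. The neutrophil gene S100a8 was at 6316 and 1919 normalized CPM in CD44High replicates 20 and 22 and at 0 in replicate 21, as in the 19 other libraries. Erythroid markers summed to 48.2 to 255 in CD44High and at most 61.3 elsewhere, megakaryocyte markers to 372 to 1037 (122 to 580 in CD44LowKitPos), haematopoietic progenitor markers to 685 to 1016 (1599 to 2688 in CD44LowKitPos) and mesenchyme markers to 0.272 to 1068. Their part in the levels of the 9 genes was not tested.

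The proteases and next components of the classical pathway did not accompany C1q. C1s2 was at 0 counts in all 22 libraries, and C1ra, C1rb, C1s1, C2, C4a and C4b reached at most 4.62 normalized CPM in any library. Of the 25 complement genes listed besides C1q, 14 passed the filter, and 5 were higher (among them C3, C5ar1, C3ar1 and Lrp1) and 2 lower (Cd93 and Scarf1) in CD44High than in CD44Neg, where 7.14% of all genes were called higher. C3, C5ar1 and Lrp1 passed only through CD44High, so that the filter fixed their direction, and 2 of the 11 that passed without it were called higher. The receptors for the C3a and C5a fragments, C3ar1 and C5ar1, were at 137 to 489 and 17.2 to 54.8 normalized CPM in CD44High. C3 itself was at 0 counts in 1 CD44High library and at most 11.7 in the others. Cd93, an endothelial receptor once thought to bind C1q, fell by 4.97 on the log2 scale (SE 0.60, edgeR adjusted p = 1.4e-06). In CD44LowKitPos against CD44Neg 0 of the 14 were called in edgeR, with 8 at an unadjusted p under 0.05.

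Many receptors and kinases that work with TYROBP and FCER1G were higher in CD44High. Of 29 listed genes 24 passed the filter, 11 of them only through CD44High. In CD44High 18 were higher and 0 lower than in CD44Neg, where 7.14% of all genes were called higher. Of the 13 that passed without CD44High, 9 were called higher. CD44LowKitPos against CD44Neg gave 5 higher and 0 lower (2.08% of all genes were called higher). CD44LowKitNeg against CD44Neg gave 2 higher and 1 lower of 8 tested (4.94%). These shares were not tested against each other. The list shares Fcgr1, Fcgr3 and Trem2 with the macrophage markers. Trem2, Siglech and Clec5a, receptors that signal through TYROBP, were at 0 counts in the 19 libraries outside CD44High, those of CD44LowKitPos with Tyrobp counts among them. In CD44High they were at 25.9 to 132, 43.0 to 77.5 and 19.97 to 187 normalized CPM. Fcgr3, a receptor that pairs with FCER1G, was at 36.7 to 92.7 in CD44LowKitPos and at 250 to 656 in CD44High. Clec4e (Mincle), which signals through FCER1G, had another pattern, at 11.2 to 132 in CD44LowKitNeg, 5.58 to 45.4 in CD44LowKitPos, 0 to 1.60 in CD44High and 0 in 9 of 10 CD44Neg libraries. Clec4e was higher in CD44LowKitNeg than in CD44Neg by 7.21 on the log2 scale (SE 1.01, edgeR adjusted p = 6.5e-05), in libraries where its adaptor Fcer1g was at no more than 9.74 normalized CPM. Plcg2, the phospholipase downstream of SYK, rose in the same comparison by 2.72 (SE 0.67, adjusted p = 0.0066) and Lyn fell by 1.01 (SE 0.21, adjusted p = 0.0023).

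Relatives of the remaining receptors were mostly not called. Of 20 genes of the mannose receptor and scavenger receptor families, 15 passed the filter. In CD44High 1 was higher (Fcgr2b, which passed only through CD44High) and 1 lower (Scarf1) than in CD44Neg, where 7.14% of all genes were called higher. The median log2 difference of the 15 was 0.18. Stab1, a scavenger receptor of sinusoidal endothelium and macrophages, was at 76.3 to 440 normalized CPM in CD44Neg and 93.4 to 405 in CD44High, and lower in CD44LowKitPos (0, 0 and 28.5, log2 difference from CD44Neg -4.79, SE 1.13, edgeR adjusted p = 0.0090). Of 24 genes of CD14 and Toll-like receptor signalling, 22 passed, 7 of them only through CD44High, and 9 were higher in CD44High than in CD44Neg, where 7.14% of all genes were called higher. The filter fixed the direction of 6 of these 9 calls, among them Tlr1, Tlr8, Cd180 and Ly86, and 3 of the 15 genes that passed without CD44High were called. In the comparisons with CD44Neg edgeR called 0 in CD44LowKitPos (6 at an unadjusted p under 0.05) and 0 of 13 tested in CD44LowKitNeg (3 at an unadjusted p under 0.05). Of 10 relatives of CD68 and LAPTM5, 8 passed, and the lysosomal genes Lamp1, Lamp2, Cd63 and Cd164 were higher in CD44LowKitNeg (4.94% of all genes were called higher) and in CD44High (7.14%) than in CD44Neg. They rose less than Laptm5 in CD44LowKitNeg, by 0.83 to 1.46 on the log2 scale, and the difference from Laptm5 was not tested. Laptm4b, a close relative of Laptm5, was lower in CD44High than in CD44Neg (-3.84, SE 0.37, adjusted p = 5.1e-08), at 10.9 to 33.6 against 248 to 365 normalized CPM.

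The genes most like each member were taken as the 3 with the highest Pearson correlation of log2 CPM over the 22 libraries, given as a description, since the libraries share population and stage and for the C1q genes the value rests on 3 libraries against 19 at 0. For C1qa they were Lilrb4a, Aif1 and Ms4a4a, for C1qb P2ry12, Lilrb4a and Pyhin1, and for C1qc Ms4a4a, Ctss and Ms4a6c, all with r above 0.999, and 158 to 163 genes had r above 0.9 with each chain. Tyrobp was nearest to Ptafr, H2-Oa and Nckap1l (0.997, 0.996 and 0.996) and Fcer1g to Plek, Tuba4a and Rac2 (0.940, 0.940 and 0.935). Cd14 was nearest to Cyp4f18, Bst1 and AI607873 (0.971, 0.957 and 0.955), Cd68 to Ccl6, Mt1 and Snhg9 (0.901, 0.884 and 0.881), Mrc1 to Bhlhe41, Gpr155 and Cx3cr1 (0.815, 0.81 and 0.801), and Laptm5 to Serinc3, Ifngr1 and Dok2 (0.922, 0.916 and 0.909). Among the 9 genes themselves r ranged from 0.388 for Laptm5 and Mrc1 to above 0.999 for pairs of C1q chains, with 0.921 for Tyrobp and Fcer1g.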

How the data were processed

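The authors deposited raw counts per gene for 22 libraries. Per the labels and the study's methods, 25 cells per library were amplified by SMART-Seq2 and tagmented, and the reads were clipped, aligned to mm10 with RNA STAR and counted with HTSeq. The annotation and strand setting of the counting are not given in the sources used here. All 24454 genes and 22 count columns were used (0 columns had no sample).

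Genes were filtered with filterByExpr (minimum count 10, minimum total 15), which left 12949 genes over 22 libraries and 11022 in the fit of the 16 CD44Neg and CD44LowKitNeg libraries, which gave that comparison. C1qa, C1qb, C1qc and Cd14 passed only through CD44High, and only Mrc1, Cd68 and Laptm5 passed in the 16-library fit. edgeR's quasi-likelihood test (edgeR 4.0.16, limma 3.58.1, R 4.3.3; prior count 0.125) was run with TMM factors, with a mean per population or per population and stage, and Benjamini-Hochberg adjustment over all genes tested. The threshold on the adjusted p was 0.01. Levels are CPM with the TMM factors of the 22-library fit, the prior count of the log2 CPM behind correlations was 2, and tables and figures were made with Python 3.11.15, pandas 2.3.3 and matplotlib 3.10.9. Exon lengths and positions are from GENCODE vM21 (GRCm38). A count of 0 was read as at most 3 counts, and the limit of the shallowest library of a group at 0 gave the bounds on folds.

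Alternatives were DESeq2 1.42.0, limma voom, other scaling factors, no filter, a threshold of 0.05, Rn45s left out, stage as a covariate, other sets of libraries in the fit, and each library left out in turn. Fits without the E9.5 libraries, within E10, and without CD44High replicates 20 and 22 were chosen after seeing the data. The labels do not tie libraries to embryos.

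The 9 genes and all lists were chosen with earlier results of these data known. All 9 are described, with the sort genes, from each list up to 4 called genes (those with the largest log2 difference where more were called), genes at or near 0, and the 3 genes most like each member. Csf1r, Spi1 and Stab1 in CD44High, Fcgr3 and S100a8 were named after their values were seen. A few called genes of these lists are not reported here.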

Additional observations from a re-analysis of the deposited data

Results flagged for a closer look

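Of 10 groups of 4 to 10 libraries with counts of one of the 9 genes, 6 held a library apart from the rest by Dixon's criterion, where chance alone gives about 1 in 20 groups. That rate is for normally spread values, and where nearly all libraries are at 0, as for Cd14 in CD44LowKitNeg, any single library with counts exceeds the criterion. Fcer1g was at 9.82 normalized CPM in CD44Neg replicate 10 (the others 0 to 2.91) and at 9.74 in CD44LowKitNeg replicate 16 (0 to 1.97). Cd14 was at 1.49 in the same CD44LowKitNeg replicate 16, where the 5 others were at 0, and at 1.59 in CD44Neg replicate 1 (0 to 0.372). Cd68 was at 8.83 in CD44Neg replicate 5 (0 to 4.50). Laptm5 was at 42.6 in CD44Neg replicate 8 (8.34 to 23.9). These values lay below every CD44High library of the same gene.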

How the results depend on the processing

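Of 65 differences of single genes, 46 were called, and 16 of these stayed called in every alternative run. Over 2083 alternative values, 1976 kept their direction and side of the threshold, 80 lost a call, 19 gained one and 8 turned in sign, with 0 of the called differences turning. No paired analysis was possible because the replicate numbers run through the series and no number is shared between populations. The causes of the changes below were not tested.

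DESeq2 called 1 of the 9 genes for CD44LowKitPos against CD44LowKitNeg (2 in edgeR), 6 for CD44High against CD44Neg (9), 4 for CD44High against CD44LowKitNeg (9), 2 for CD44High against CD44LowKitPos (4), 3 for E11 CD44High against E11 CD44Neg (8) and 4 for E11 CD44High against E11 CD44LowKitNeg (9). For CD44High against CD44LowKitPos, limma voom called 8, the fit of only the libraries compared 7 and stage as covariate 0. For CD44LowKitPos against CD44LowKitNeg, only the libraries compared gave 0, and both the fit without the E9.5 libraries and that within E10 gave 1. CD44LowKitNeg against CD44Neg within E10 gave 0. With no filter, E11 CD44LowKitNeg against E11 CD44Neg gave 2, CD44LowKitNeg at E11 against E10 gave 1, and the interaction gave 1 (Mrc1).

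Leaving out each library in turn gave 1 to 2 calls for CD44LowKitPos against CD44LowKitNeg, 7 to 9 for CD44High against CD44LowKitNeg, 4 to 5 for CD44High against CD44LowKitPos, 6 to 8 for E11 CD44High against E11 CD44Neg and 6 to 9 for E11 CD44High against E11 CD44LowKitNeg, and the counts of the other comparisons did not change. A lone library left in a group was assumed to vary like the others. Without CD44High replicates 20 and 22, 8 genes were called against CD44Neg and 6 against CD44LowKitNeg, and at E11 6 against CD44Neg and 7 against CD44LowKitNeg.

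The sign turned for Mrc1 alone, in differences that were not called. For CD44LowKitPos against CD44Neg it was -1.78 in limma voom, -7.86 without the E9.5 libraries and -3.46 within E10, and -7.69 to 0.80 without single libraries. For CD44LowKitNeg at E11 against E10 it was 0.61 in limma voom and -1.54 to 7.94 without single libraries, and for the interaction -6.94 to 2.52.

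Over all genes, edgeR called 1121 for CD44LowKitNeg against CD44Neg (DESeq2 1749, without the E9.5 libraries 569), 451 for CD44LowKitPos against CD44Neg (DESeq2 817, limma voom 729), 552 for CD44LowKitPos against CD44LowKitNeg (DESeq2 1243, limma voom 1244, stage as covariate 366, only the libraries compared 15) and 390 for CD44High against CD44LowKitPos (DESeq2 716, only the libraries compared 204, without the E9.5 libraries 254). CD44High against CD44LowKitNeg gave 2067 (only the libraries compared 1265). For CD44High against CD44Neg, 925 higher and 939 lower in edgeR became 854 and 1390 in DESeq2 and 1123 and 678 in limma voom. For CD44High against CD44LowKitPos, 101 higher and 289 lower in edgeR became 218 and 498 in DESeq2. There the balance turned to 361 higher and 124 lower in limma voom and to 141 and 63 with only the libraries compared. DESeq2's size factors moved the median log2 difference of all genes between CD44LowKitPos and CD44LowKitNeg from -0.02 to -0.16, and its calls from 330 higher of 552 to 218 of 491.

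Depth limits the genes at 0, since 3 counts correspond to 0.348 to 0.816 normalized CPM, and 25 cells and 3 libraries limit what CD44High and CD44LowKitPos can show.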

Other observations

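Cx3cr1, a receptor of tissue macrophages and microglia, and Mrc1 had their highest levels outside CD44High in the same library of CD44LowKitNeg and the same library of CD44LowKitPos, both from E9.5. CD44LowKitNeg replicate 14 held 118 counts of Cx3cr1 and 339 of Mrc1, and CD44LowKitPos replicate 19 held 3 and 104. Each is the sole library of its population at that stage, so no spread can be given. In the other 17 libraries outside CD44High, Cx3cr1 was at 0 counts.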
